A study of Sus scrofa with 35 samples.

Results

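The genes described here carry oxygen, make or break haem, or move and store iron: HBB, ALAS2, MB, HMOX1, FTH1, FTL, TFRC and TF. They were read in longissimus dorsi, a muscle of the back, on 35 one-colour Agilent arrays, each of them holding the RNA of 1 castrated male growing pig. Every non-control probe whose gene name in the scanner files is one of these 8 genes was taken, which gave 27 probes of 60305 on the array, for 8 of its 45222 gene names. Of these, 26 were kept for the fits, among 41517 kept probes in all, because they rose well above background on 75% or more of the arrays in 1 group or more. The genes were chosen by earlier results of these arrays, in which HBB was lower under heat, so their differences between temperatures are given as a description and support nothing. Where member probes are counted as called, that is, past a limma adjusted p of 0.05 over all kept probes, the count only sorts them. The tests concern breed, the interaction of breed and temperature, co-variation among animals of the same group, and other genes of the same pathways.

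The 6 groups were Creole, Large White and their F1 cross, each at thermoneutrality (TN) and under heat stress (HS), with 6 arrays a group except F1 HS, which had 5. Room temperature in the labels is 24 °C for the TN pigs and 30 °C for the HS pigs, while the growth protocol states a challenge at 32 °C lasting 5 days. All pigs were raised at the same site. By the study methods the TN pigs were killed first and the HS pigs after the challenge, in different pens, so slaughter day, pen and age cannot be told apart from temperature, and littermates were spread over the pens of a breed. The paper also reports lower feed intake under heat, so intake cannot be told apart from temperature either. The labels name an animal for each sample and no litter. The p-values treat the animals as independent.

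The 8 muscle markers, among them ACTA1, CKM and TTN, were all bright, with a mean between 16.96 and 17.55 log2 on every array. The share of probes well above background ran from 58.4% to 75.9% over the arrays. Before normalisation, the 75th percentile of intensity ran from 425.5 to 677.5 on TN arrays and from 470.9 to 785.4 on HS arrays, with means of 535.1 and 612.1. Values below are log2 of the quantile-normalised median spot intensity. They compare arrays for 1 probe and not 1 probe with another, and ± gives the SD over arrays.

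Haemoglobin carries oxygen in red cells as a tetramer of alpha and beta chains, and HBB encodes the beta chain. ALAS2 is the red cell form of the enzyme that starts haem synthesis. Myoglobin (MB) holds oxygen inside muscle fibres and is known for its abundance in slow, oxidative fibres. HMOX1 cleaves haem and releases its iron, FTH1 and FTL are the heavy and light chains of ferritin, the cytosolic iron store, and TF and TFRC are the plasma iron carrier and its receptor on the cell surface. When a cell is rich in iron, ferritin chains are translated more and TFRC mRNA is degraded faster, both through iron regulatory proteins.

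Probe sequences, copied from the scanner files, are shown where they bear on what a probe can read. The first pair shows that the probes named FTL lie on opposite strands. They share 44 bases as reverse complements. The 30 bases below face each other, and the capitals mark the same 12 base pairs in both.

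FTL A_72_P050477, bases 1 to 30: tacctcttcGAAAGGCTCACActcaagcac
FTL O14325, bases 15 to 44: gtgcttgagTGTGAGCCTTTCgaagaggta

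The FTL probes cannot both read FTL mRNA. A_72_P050477 has the higher mean and stands for FTL by the rule used for every gene, and O14325 is given beside it. Over the whole array, 1848 of 9532 probes of the O family shared 25 or more bases with a probe of the A_72 family, and 124 of them (6.7%) did so on the opposite strand alone. The only probes for HBB and ALAS2 are of the O family and share no such stretch, so the arrays hold no second probe of the gene name to set their strand by. The number of open reading frames did not settle it. Both probes, like the MB probe, have 1 frame without a stop codon as printed and 1 in the reverse complement. No frame was translated and compared with a protein. The levels given for HBB and ALAS2 could therefore be those of the opposite strand. Values given for ALAS2 below are those of its probe, and nothing about ALAS2 mRNA is concluded from them. The ALAS2 probe is shown in full because the gene rests on it alone.

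ALAS2 O895: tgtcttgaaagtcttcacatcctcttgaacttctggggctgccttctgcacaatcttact

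The probe for HBB and the bright probe described in the files as haemoglobin subunit alpha, which carries no member's gene name, are shown because the haemoglobin values rest on them. The MB probe was the only one of its gene.

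HBB O859, bases 31 to 60: ctgacacaaccgtgttcactagcaactgca
alpha chain A_72_P159746, bases 1 to 30: acaagttcctggcaacgtgagcaccgtgct
MB A_72_P302979: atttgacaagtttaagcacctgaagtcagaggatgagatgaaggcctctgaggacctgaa

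To describe how the oxygen carriers stood in each group, HBB was read first. HBB was lower in HS than in TN in all 3 breeds. Its level was 9.05 ± 0.53 log2 over the 18 TN arrays and 7.85 ± 0.86 over the 17 HS arrays, a difference of -1.21 (SE 0.22) with breed in the model. In Creole, TN arrays ran from 8.27 to 9.28 with a median of 9.03, and HS arrays from 7.23 to 8.24 with a median of 7.56. These Creole ranges did not overlap. In F1, TN arrays ran from 8.35 to 10.07, while the 5 HS arrays read 7.99, 8.34, 8.01, 6.50 and 6.84. The highest F1 HS array lay just under the lowest F1 TN array, and 2 of the 5 HS arrays lay well below the rest. In Large White, TN arrays ran from 8.49 to 9.92 and HS arrays started at 6.47 and reached above the highest TN array, so that the HS range held the whole TN range. Of the 17 HS arrays, 16 lay below the TN mean of their breed, and the exception was a Large White array.

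**Figure D1:**
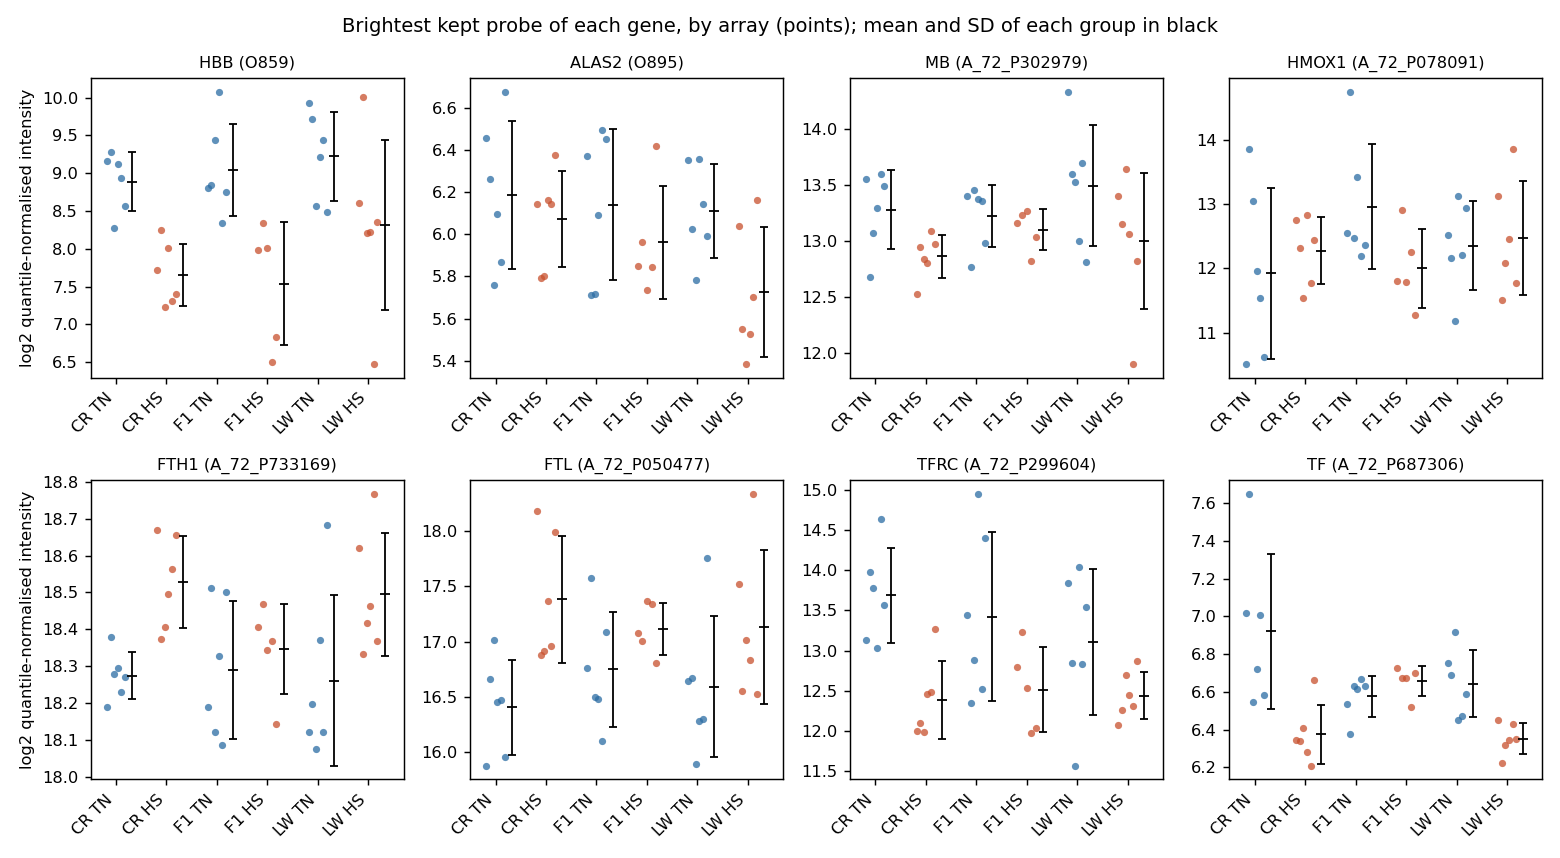
Log2 quantile-normalised intensity of the brightest kept probe of each of the 8 genes (vertical axes, scales differ between panels) for the 6 groups, with CR for Creole and LW for Large White. Points are single arrays (blue TN, red HS) and black bars are the group mean with its SD. HBB and TFRC sit lower in HS in each breed, and the TF values of Creole TN spread up to 7.65.

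The alpha chain probe moved with HBB. It read 14.23 ± 0.63 log2 over the 18 TN arrays and 12.83 ± 1.1 over the 17 HS arrays, a difference of -1.41 (SE 0.28), and 16 of 17 HS arrays again lay below the TN mean of their breed. In Creole, its TN arrays ran from 13.52 to 14.51 and its HS arrays from 11.85 to 13.10, with no overlap. In F1, TN ran from 13.37 to 15.35 and HS read 13.36, 13.24, 13.22, 11.40 and 11.04. The Large White HS arrays spread from 11.33 to 15.61, around a TN range of 13.59 to 15.54. Among animals of the same group, deviations from the 6 group means of HBB and of the alpha chain probe correlated with Pearson r = 0.944 and Spearman rho = 0.921 over 35 arrays. By permutation within groups, p = 1e-05 for both, the smallest that 100000 permutations can give, and adjusted over 3 pairs 3e-05 and 2e-05. Without the 2 arrays farthest in HBB, r was 0.904, and with slide means also removed it was 0.943. This pair was chosen after the values were seen. A second probe described as a beta chain, A_72_P055481, was well above background on 17 arrays only, 12 TN and 5 HS. It passed the filter through 1 group alone, Large White TN, where its mean was highest. Its difference between temperatures was -0.40 (SE 0.14), and nothing is read from it. A partial alpha chain probe, A_72_P198167, differed by 0.11 (SE 0.06) in the other direction.

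**Figure D2:**
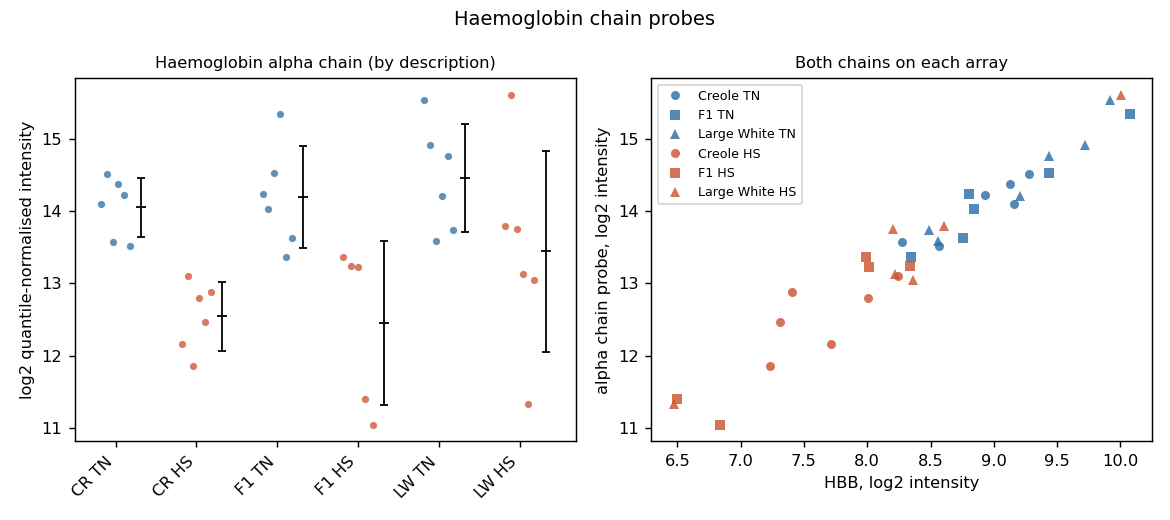
Left, log2 intensity of the alpha chain probe by group, with points for arrays and black bars for the mean and SD of a group. Right, the alpha chain probe (vertical, log2) against HBB (horizontal, log2) on each of the 35 arrays, blue for TN and red for HS, with a symbol for each breed. The arrays low in HBB, down to 6.47, are those low in the alpha chain.

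Markers of the red cell were read as well, because blood left in the muscle carries haemoglobin mRNA. Of 20 listed red cell markers other than HBB and ALAS2, 9 had a kept probe. AHSP, the chaperone of free alpha chains, fell by 0.44 (SE 0.15, limma adjusted p = 0.048), a call lost in 20 of 35 fits that left out 1 array and under 8 of 16 alternative settings, and EPB42, a protein of the red cell membrane skeleton, fell by 0.33 (SE 0.11, limma adjusted p = 0.0408). The other 7 did not pass the test, among them SLC4A1, the band 3 anion exchanger, at 0.37 (SE 0.17, limma adjusted p = 0.123). EPB42, SLC4A1, ANK1, KLF1, GATA1 and HEMGN were read on probes of the O family. The strand of O family probes was not checked for the markers of any cell type. The mean over the 9 markers was 8.63 ± 0.11 log2 over the 18 TN arrays and 8.53 ± 0.07 over the 17 HS arrays, and their summed level ran from 16.92 to 17.48 in TN and from 16.75 to 17.39 in HS, most of it from ANK1, which muscle also expresses. GYPC, RHAG, TRIM58, TAL1, ERMAP, HBM and the HBA symbols were among the markers with no kept probe. Fewer red cells in a sample and less haemoglobin RNA per cell cannot be told apart in bulk muscle, and the part of blood content in the HBB difference was not tested.

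ALAS2, on a probe whose strand was not settled, was dim, well above background on 30 of 35 arrays. It read 6.14 ± 0.30 log2 over the 18 TN arrays and 5.92 ± 0.29 over the 17 HS arrays, a difference of -0.23 (SE 0.10). The ranges of 5.71 to 6.67 in TN and 5.38 to 6.42 in HS overlapped over most of their length. The 2 highest group means, Creole TN at 6.19 ± 0.35 and F1 TN at 6.14 ± 0.36, and the lowest, Large White HS at 5.73 ± 0.31, differed by little more than 1 SD. Deviations of the ALAS2 probe from its group means showed no correlation past the threshold with those of HBB (Pearson r = -0.08, Spearman rho = -0.08, within-group permutation p = 0.692 and 0.651, adjusted over 28 pairs 0.881 and 0.772). With the strand of the probe not settled, this does not show that ALAS2 mRNA varied apart from HBB.

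MB was lower in HS by 0.35 on the log2 scale (SE 0.13). It read 13.33 ± 0.40 over the 18 TN arrays and 12.98 ± 0.38 over the 17 HS arrays, and 14 of 17 HS arrays lay below the TN mean of their breed. By breed the change was -0.42 in Creole, -0.12 in F1 and -0.50 in Large White, each with an SE between 0.22 and 0.23. Creole TN ran from 12.68 to 13.60 and Creole HS from 12.52 to 13.09. Large White had the widest spread, with TN from 12.81 to 14.33 and HS from 11.90 to 13.64, and all groups overlapped. The difference was -0.44 with the 75th percentile scaling of the processed signal, -0.17 with the leukocyte covariate, -0.15 with the macrophage covariate and -0.12 with the array brightness covariate. Beside it, the 9 kept slow fibre markers had a mean of 16.13 ± 0.30 in TN and 16.12 ± 0.30 in HS, and 1 rose and 1 fell. The 9 kept fast fibre markers had a mean of 17.36 ± 0.12 in TN and 17.11 ± 0.24 in HS, and TNNI2, ATP2A1 and MYBPC2 fell. The 8 skeletal muscle markers, which share genes with the fast list, had means of 17.38 ± 0.11 and 17.25 ± 0.13. The part of fibre makeup in the MB values was not tested.

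HMOX1 had 4 kept probes. Its brightest probe read 12.41 ± 1.06 log2 over the 18 TN arrays and 12.26 ± 0.68 over the 17 HS arrays, a difference of -0.14 (SE 0.29), and the 4 probes ranged from -0.26 to -0.14. The breeds differed in sign. In F1, TN ran from 12.19 to 14.74 and the 5 HS arrays read 11.80, 12.91, 11.79, 12.25 and 11.27, a difference of -0.95 (SE 0.51), with all 5 below the TN mean. The F1 TN median was 12.52, below the highest of these HS arrays. Without F1 TN replicate 2, the array at 14.74, the difference over all breeds was -0.01. Without Creole TN replicate 1 it was -0.245, and these were the extremes over the arrays left out. In Creole, TN ran from 10.51 to 13.85 and HS from 11.53 to 12.82, a difference of 0.35 (SE 0.48), with 4 of 6 HS arrays above the TN mean. In Large White the difference was 0.11 (SE 0.48). The limma interaction test gave an adjusted p = 0.963, so the breeds were not shown to differ. With the mean of the leukocyte markers as a covariate, the 4 HMOX1 probes ranged from -0.75 to -0.67, and with the mean of the macrophage markers from -0.96 to -0.84.

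FTL was higher in HS, and FTH1 was higher under quantile normalisation but not under the 75th percentile scaling, where its brightest probe read -0.04. FTL read 16.58 ± 0.53 log2 over the 18 TN arrays and 17.22 ± 0.54 over the 17 HS arrays, a difference of 0.64 (SE 0.18). In Creole, TN ran from 15.87 to 17.02 and HS from 16.88 to 18.19, and all 6 HS arrays lay above the TN mean. In F1, TN ran from 16.10 to 17.58 and the 5 HS arrays read 17.07, 17.01, 17.37, 17.34 and 16.80, again all above the TN mean. In Large White, TN ran from 15.88 to 17.76 and HS from 16.52 to 18.34, with 4 of 6 above it. The opposite-strand probe O14325 read 8.69 ± 0.17 in TN and 8.73 ± 0.30 in HS, a difference of 0.05 (SE 0.08).

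FTH1 had 11 probes, 9 pairs of which overlapped in sequence by 19 to 35 bases, so they are not independent reads. All 11 were higher in HS by 0.14 to 0.22 under quantile normalisation. With the 75th percentile scaling of the processed signal they ranged from -0.04 to 0.05, with median scaling from 0.04 to 0.14 and with spike-in scaling from 0.12 to 0.22. The brightest probe read 18.27 ± 0.17 over the 18 TN arrays and 18.46 ± 0.15 over the 17 HS arrays, a difference of 0.19 (SE 0.06), with no saturated spot. In Creole, its TN arrays ran from 18.19 to 18.38 and its HS arrays from 18.37 to 18.67, which overlap by 0.01 or less. In F1 the change was 0.06 (SE 0.10), against 0.25 in Creole and 0.23 in Large White (SE 0.10 each).

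Markers of macrophages were read beside the ferritin chains. Of 13 listed, 12 had a kept probe, and 6 rose in HS: LYZ by 2.26 (SE 0.51, limma adjusted p = 0.00333), VSIG4 by 1.24 (SE 0.23, adjusted p = 0.000606), CSF1R, AIF1, C1QB and C1QA. None fell, and MARCO alone had no kept probe. The mean over the list was 9.74 ± 0.83 log2 over the 18 TN arrays and 10.56 ± 0.48 over the 17 HS arrays, and its summed level ran from 11.90 to 15.25 in TN and from 14.15 to 15.66 in HS. With that mean as a covariate, the FTL difference was 0.08, that of FTH1 0.06, that of HBB -1.02 and that of TFRC -1.11. The covariate itself differed between temperatures, and with it 6654 calls over all kept probes became 1040. The part of macrophage content in the values of these genes was not tested.

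TFRC was lower in HS in all 3 breeds. Its brightest probe read 13.41 ± 0.85 log2 over the 18 TN arrays and 12.44 ± 0.42 over the 17 HS arrays, a difference of -0.96 (SE 0.22), and none of the 17 HS arrays lay above the TN mean of its breed. The other 2 probes differed by -0.62 (SE 0.14) and -0.49 (SE 0.12), also with 17 of 17 HS arrays below. These 2 probes were dim, well above background on 34 and 31 of the 35 arrays. In Creole, TN ran from 13.04 to 14.63 and HS from 11.99 to 13.26. In F1, TN ran from 12.35 to 14.95 and HS read 12.79, 13.24, 12.53, 11.97 and 12.04. In Large White, TN ran from 11.57 to 14.04 and HS from 12.07 to 12.87. The groups overlapped in each breed, and the spread was wider in TN than in HS. Of 9 kept endothelial markers, VWF fell by 0.36 (SE 0.08, limma adjusted p = 0.00226) and ERG by 0.29 (SE 0.08, limma adjusted p = 0.0098), and none rose. Their mean was 10.48 ± 0.24 in TN and 10.29 ± 0.23 in HS, their summed level ran from 14.03 to 15.33 in TN and from 13.79 to 14.70 in HS, and their part in the TFRC values was not tested.

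TF, most of which the liver makes, had values that leaned on 3 TN arrays. Its brightest kept probe read 6.71 ± 0.29 log2 over the 18 TN arrays and 6.45 ± 0.17 over the 17 HS arrays, a difference of -0.26 (SE 0.08), and its other kept probes differed by -0.40 (SE 0.24) and -0.33 (SE 0.18). The remaining probe, O10046, was well above background on 4 arrays and was not kept, and A_72_P318598 passed through 1 group alone. In Creole, TN ran from 6.54 to 7.65 and HS from 6.21 to 6.66. In F1, TN ran from 6.38 to 6.67 and the HS arrays read 6.73, 6.67, 6.67, 6.52 and 6.70. In Large White, TN ran from 6.45 to 6.92 and HS from 6.23 to 6.45.

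On the second TF probe, A_72_P308693, the highest arrays were Creole TN replicate 2 at 10.03, Creole TN replicate 5 at 8.11 and Large White TN replicate 3 at 7.86. These were also the arrays with the highest mean of the plasma protein markers ALB, APOA1 and SERPINA1, at 11.66, 11.10 and 10.83 against at most 9.74 elsewhere. Of that list, 3 of 7 had a kept probe, none was called between temperatures, its summed level ran from 12.77 to 13.88 in TN and from 12.59 to 13.42 in HS, and TTR, FGB, FGA and AHSG had no kept probe. Without these 3 arrays the TF difference was -0.16. The part of liver-type RNA in the TF values was not tested.

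Over all members, 12 of 26 kept probes (46.2%) were called between temperatures, 7 higher and 5 lower in HS. The split was 1 higher and 6 lower with the 75th percentile scaling, 1 and 5 with median scaling, 2 and 4 with spike-in scaling, 0 and 4 with the brightness covariate, 1 and 8 with the leukocyte covariate and 0 and 7 with the macrophage covariate. Of all 41517 kept probes, 16.0% were called, 7.73% higher and 8.30% lower. The genes were selected on this contrast, so nothing is read from the difference between these shares. Within Creole, 2 of 26 were called, an FTH1 probe (A_72_P223812, 0.31, SE 0.08) and the brightest TF probe (-0.55, SE 0.12), beside 1.91% of all probes. Within F1 and within Large White none was called in limma, beside 0.00482% of all probes in either. At an unadjusted p below 0.05 there were 5 and 15 of 26, beside 8.3% and 16.6% of all probes, and nothing is read from these counts either. The Creole count was 0 without the 3 arrays high in plasma protein markers.

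**Figure D3:**
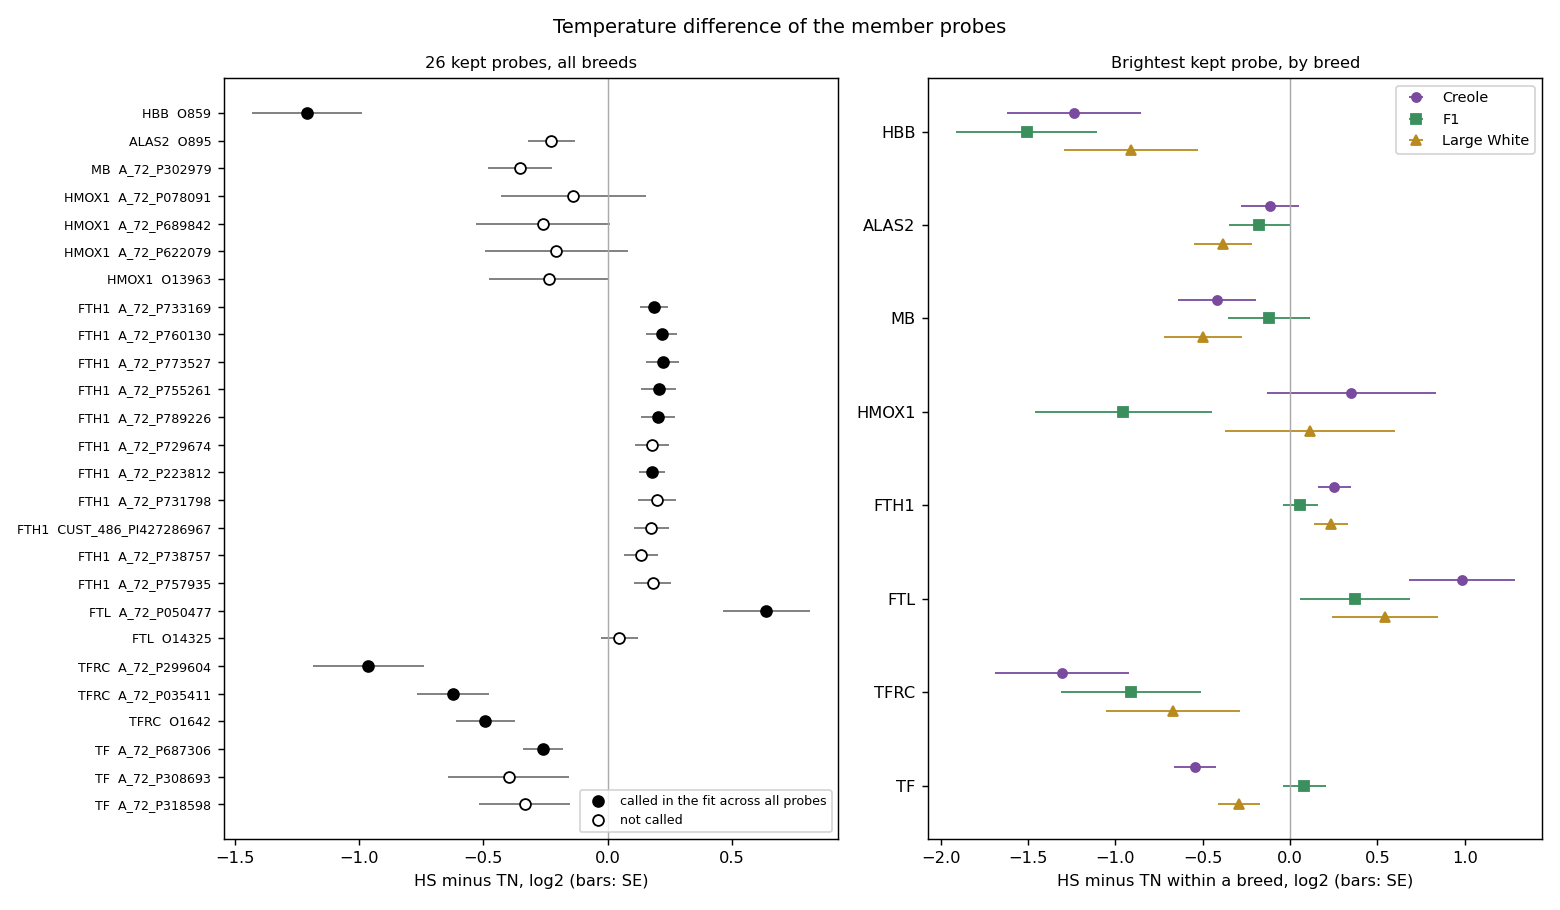
Left, HS minus TN (horizontal, log2, bars are the SE) for the 26 kept probes with breed in the model, filled where called and open where not. Right, the same difference within each breed for the brightest kept probe of each gene. HBB and TFRC lie below 0 in all 3 breeds and FTL above it, while HMOX1 lies at -0.95 in F1 and above 0 in the other 2.

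To see whether the members depended on breed, the genetic groups were compared at equal temperature. No member probe differed past the threshold in limma. Of all probes, 3.64% were called for Creole against Large White, 0.525% for F1 against Large White and 0.477% for F1 against Creole. The smallest adjusted p of a member was 0.285, 0.253 and, on a TF probe, 0.187. At an unadjusted p below 0.05 there were 1, 1 and 2 of 26 member probes, beside 15.4%, 10.5% and 8.88% of all probes. HBB was 0.50 lower in Creole than in Large White (SE 0.27, limma adjusted p = 0.389) and 0.46 lower in F1 (SE 0.27, limma adjusted p = 0.589), which does not show that the breeds had equal levels. The temperature difference did not depend on breed past the threshold for any member probe, nor for any of the 41517 probes (0%), with a smallest adjusted p of 0.963 over all. Unadjusted, 2 of 26 member probes and 1593 of all probes (3.84%) were below 0.05. The smallest among the members was that of TF (limma adjusted p = 0.963), where the difference was -0.55 in Creole, -0.29 in Large White and 0.08 in F1.

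The groups were ordered by their means for each gene. HBB went from Large White TN (9.22 ± 0.59) through F1 TN (9.04 ± 0.61) and Creole TN (8.89 ± 0.39) to Large White HS (8.31 ± 1.13), Creole HS (7.65 ± 0.41) and F1 HS (7.54 ± 0.81). TFRC went from Creole TN (13.69 ± 0.59) through F1 TN and Large White TN (13.11 ± 0.91) to F1 HS (12.51 ± 0.53), Large White HS and Creole HS (12.38 ± 0.49). Neighbours in either order did not differ beyond the larger of their SDs. For both genes the 3 TN means stood above the 3 HS means. FTL had the reverse order, with the 3 HS means between 17.12 and 17.38 and the 3 TN means between 16.40 and 16.75.

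How members varied among animals of the same breed and temperature was tested on deviations from the 6 group means, with 28 pairs and permutation within groups. FTL rose with HMOX1 over 35 arrays (Pearson r = 0.691, Spearman rho = 0.714, permutation p = 1e-05 for both, adjusted 0.00014 and 0.00028). Without the 2 arrays farthest in HMOX1, r was 0.69. With slide means also removed r was 0.674, and with the 75th percentile scaling it was 0.65. Many other genes went more closely with FTL or with HMOX1 than these went with each other, as given below. MB fell as HMOX1 rose (r = -0.539, rho = -0.454, permutation p = 0.00196 and 0.0148, adjusted 0.011 and 0.0827). That r was -0.459 without the 2 farthest arrays, -0.644 with slide means removed and -0.528 with the 75th percentile scaling, and its rank correlation passed the adjustment only with slide means removed (rho = -0.516, permutation p = 0.00561, adjusted 0.0262).

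The pairs with FTH1 turned with the scaling. Under quantile normalisation FTH1 went with FTL (r = 0.806, rho = 0.738, permutation p = 1e-05 and 2e-05, adjusted 0.00014 and 0.00028) and with HMOX1 (r = 0.633, rho = 0.669, permutation p = 4e-05 for both, adjusted 0.000373 for both), and against MB (r = -0.617, rho = -0.454, permutation p = 0.00067 and 0.0102, adjusted 0.00469 and 0.0712). Without the 2 farthest arrays these r were 0.714, 0.608 and -0.446. With the 75th percentile scaling they were -0.156, -0.26 and 0.484. MB against FTL (r = -0.538, rho = -0.341, permutation p = 0.00653 and 0.0712, adjusted 0.0305 and 0.249) was -0.287 without the 2 farthest arrays, -0.425 with the other scaling and -0.644 with slide means removed (rho = -0.535, permutation p = 0.00088 and 0.00357, adjusted 0.00411 and 0.02). The other 22 pairs did not pass the adjustment. With slide means removed HBB and FTL did (r = -0.559, rho = -0.412, permutation p = 0.00372 and 0.0232, adjusted 0.0149 and 0.0928), against r = -0.356 and an adjusted permutation p of 0.253 without, and r was -0.351 without 2 arrays. Without slide removal HBB and MB came nearest (r = 0.508, rho = 0.395, permutation p = 0.0157 and 0.0253, adjusted 0.0627 and 0.118), and without 2 arrays r was 0.355.

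**Figure D4:**
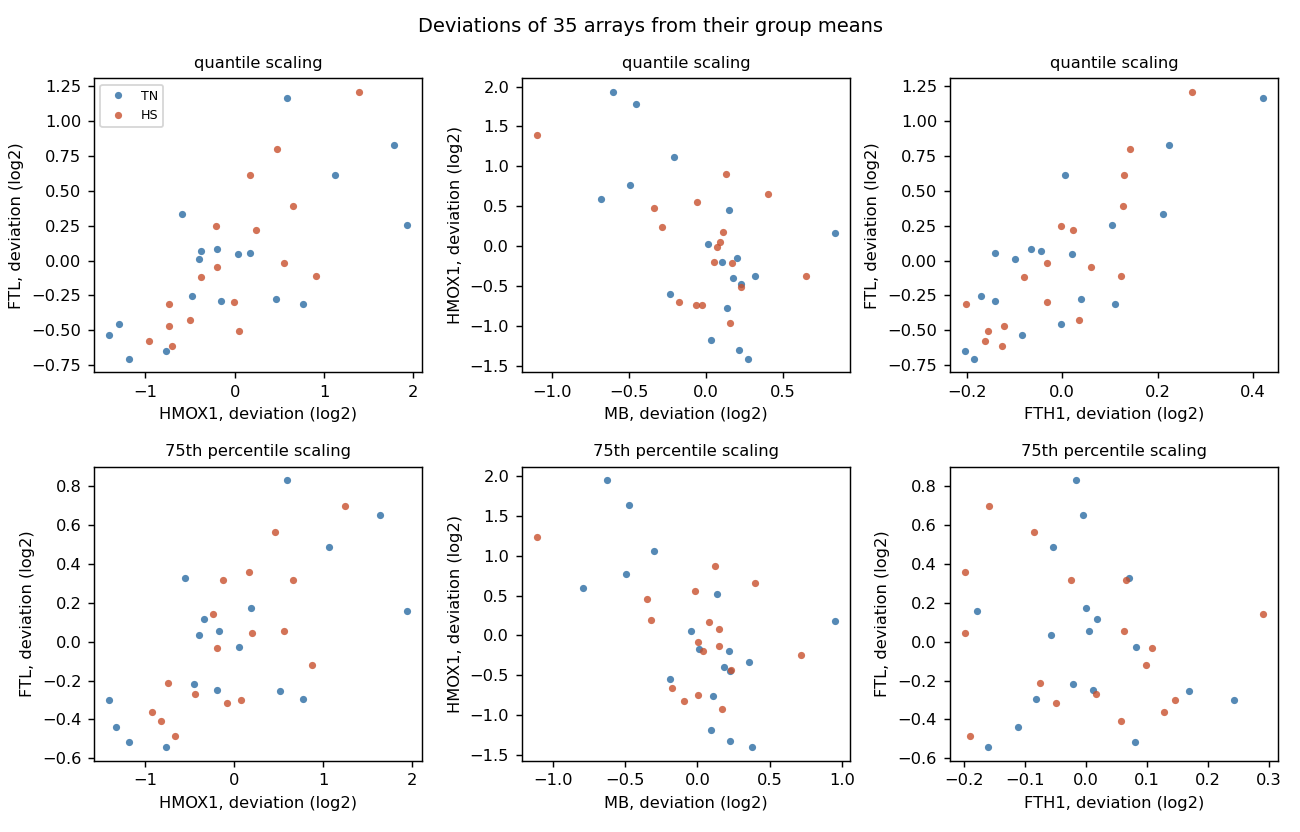
Deviations of the 35 arrays from their group means (log2), blue for TN and red for HS, for FTL against HMOX1, HMOX1 against MB and FTL against FTH1, with quantile normalisation above and 75th percentile scaling below. The first pair keeps its slope (r = 0.691 and 0.65), and the third loses it (r = 0.806 and -0.156).

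The genes whose deviations were most like a member's, among 9153 genes and over 35 arrays, are given as a description. For HBB they were AHSP (r = 0.773), FHL5 (0.731) and CLEC14A (0.678). Only probes with a gene symbol were compared, so the alpha chain probe (r = 0.944 with HBB) was not among them. For ALAS2 they were MRAP (0.885), TMEM181 (0.838) and KLHL4 (0.814), and for MB they were FOXN3 (0.884), TRNP1 (0.874) and PLN (0.872), the last of which encodes phospholamban, a regulator of the calcium pump of slow muscle. For HMOX1 they were HK1 (0.911), TXNRD1 (0.911) and CD9 (0.905). For FTL they were BASP1 (0.973), CTSB (0.969) and NPC2 (0.967), the last 2 being lysosomal proteins, and for FTH1 they were PAPSS1 (0.873), LHFPL2 (0.867) and CLTC (0.844). For TFRC they were CA4 (0.59), HEY1 (0.582) and SMAGP (0.577). For TF they were CPB2 (0.847), HPX (0.776) and APOC3 (0.775), all of them genes of plasma proteins. For comparison, 5% of genes had r above 0.83 with FTL, 0.724 with HMOX1, 0.71 with FTH1 and 0.274 with TFRC. Under quantile normalisation, FTL with HMOX1 (r = 0.691) lay below the values of both genes, as did HMOX1 with FTH1 (r = 0.633). FTH1 with FTL (r = 0.806) lay above the value of FTH1 and below that of FTL. The tests of these pairs therefore do not show a link specific to haem or iron.

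Other genes of globin, haem and iron pathways were then compared between temperatures. Of 89 listed, 62 had a kept probe. In HS, 3 rose and 9 fell, 12 of 62 or 19.4%, beside 16.0% of all probes. Their median change was -0.10 log2, beside -0.02 over all probes, and 42 of the 62 estimates were below 0. With the mean of the macrophage markers as a covariate 2 of 62 were called, and with spike-in scaling 5 were. Leaving out 1 array at a time lost the call of UROS for 23 of the 35 arrays, of AHSP and ISCA1 for 20 each, of BLVRB for 9 and of HEBP1 for 4.

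Haem breakdown and transport held the largest changes. FLVCR2, a membrane transporter of the FLVCR family, rose from 7.84 ± 0.56 to 8.62 ± 0.30 (change 0.80, SE 0.15, limma adjusted p = 0.000513) in 17 of 17 HS arrays against the TN mean of the breed. FLVCR1, a haem exporter of the same family, fell by 0.68 (SE 0.16, adjusted p = 0.00455), with 15 of 17 HS arrays below. BLVRB, which reduces biliverdin, rose by 0.42 (SE 0.14, adjusted p = 0.0339). HMOX2, the constitutive haem oxygenase, fell by 0.22 (SE 0.06, adjusted p = 0.0134). HEBP1, a haem-binding protein, fell by 0.40 (SE 0.13, adjusted p = 0.029) on its brightest probe, while its other 2 probes pointed the other way without passing. The remaining 7 of 12, PGRMC2 among them (change -0.08, SE 0.06, adjusted p = 0.387), did not pass. CD163, the receptor that clears haemoglobin bound to haptoglobin, differed by 0.70 (SE 0.26, adjusted p = 0.066). Another kept probe of PGRMC2, and another of CD163, was called in the same direction as the probe used.

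Of 12 haem synthesis genes, SLC25A38, a mitochondrial carrier that supplies glycine, rose by 0.27 (SE 0.06, limma adjusted p = 0.00305) in 17 of 17 HS arrays. UROS, an enzyme of the pathway, fell by 0.22 (SE 0.08, adjusted p = 0.0482). ABCB6, a mitochondrial porphyrin transporter, differed by 0.16 (SE 0.11, adjusted p = 0.321). None of 10 genes of iron uptake, storage and export passed, with PCBP2 at -0.09 (SE 0.05, adjusted p = 0.284) and SLC39A14 at 0.07 (SE 0.13, adjusted p = 0.769) named by the rule. Another kept probe of PCBP2, and another of NCOA4 in the same list, was called in the direction opposite to that of the probe used. Among 10 regulators, EPAS1, which encodes HIF-2 alpha, fell by 0.29 (SE 0.08, adjusted p = 0.00876), and HFE2, the hemojuvelin gene, differed by -0.26 (SE 0.13, adjusted p = 0.184).

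Of 15 genes of iron-sulphur cluster assembly, NFS1, the cysteine desulphurase, fell by 0.26 (SE 0.07, limma adjusted p = 0.0102) and ISCA1, an assembly factor, fell by 0.19 (SE 0.06, adjusted p = 0.0429), while NFU1 differed by 0.07 (SE 0.05, adjusted p = 0.355). KEAP1, which holds NRF2 in check, differed by -0.14 (SE 0.06, adjusted p = 0.0823), and its other kept probe was called in the same direction. Among the other globins, CYGB differed by 0.09 (SE 0.11, adjusted p = 0.615). Of the 62 probes, 26 are of the O family, FLVCR1, BLVRB, SLC25A38, EPAS1 and ISCA1 among them. The strand of 21 of these was not settled, and the 5 that overlap an A_72 probe, SLC25A38 among them, lie on the same strand as it.

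Between breeds, 4 of the 62 passed, all in Creole against Large White, where 3.64% of all probes did. FLVCR1 was 0.77 higher in Creole (SE 0.19, limma adjusted p = 0.0177) and ISCA1 0.35 higher (SE 0.08, adjusted p = 0.0053). PGRMC1, a haem-binding membrane protein, was lower by 0.35 (change -0.35, SE 0.09, adjusted p = 0.0168), as was ISCA2 (change -0.39, SE 0.11, adjusted p = 0.0333), whose call was lost for 9 of the 35 arrays left out.

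**Figure D5:**
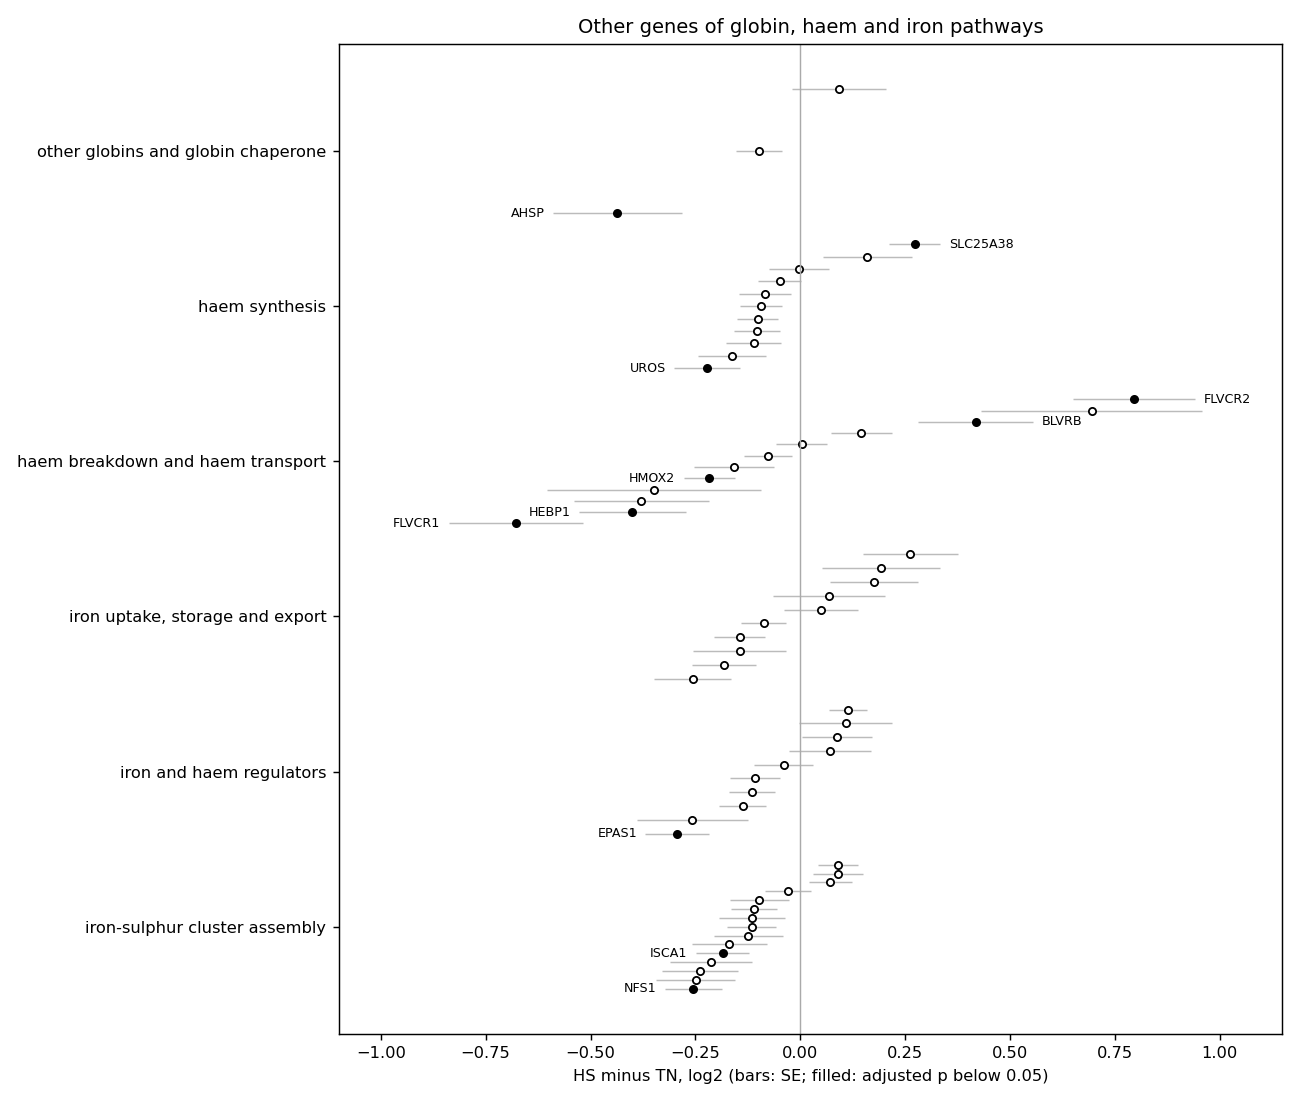
HS minus TN (horizontal, log2, bars are the SE) of other pathway genes with a kept probe, by list, filled and named where the limma adjusted p is below 0.05. FLVCR2 at 0.80 and FLVCR1 at -0.68 lie farthest from 0, and no gene of iron uptake, storage and export is filled.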

How the data were processed

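RNA of longissimus dorsi muscle was read on 35 one-colour Agilent porcine arrays quantified with Feature Extraction 10.10.1.1. The deposited scanner files give intensity per spot, the median and mean pixel brightness, local background, a processed signal and quality flags. The deposited value table holds log2 values of 40649 probes, which the authors normalised by quantile and filtered on expression.

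The median intensity of non-control spots was quantile-normalised without background subtraction and put on the log2 scale. In total 105 spots flagged as outliers counted as missing, and repeated spots of a probe were averaged. No member spot was saturated. Members were found by gene name, other genes by RefSeq accession (Sscrofa11.1 gene table, names only), then gene name, and 22398 probes had a symbol. Of a gene, the kept probe with the highest mean was used.

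Fits used limma 3.58.1 in R 4.3.3 on all 35 arrays, with Benjamini-Hochberg adjustment over all kept probes at 0.05, and a probe past it is termed called. Temperature and breed were fitted additively. Changes within a breed and the interaction (moderated F-test) came from a model of 6 group means. The random terms of the study methods (pen, slaughter day and parents) could not be fitted because the labels lack them. Pairs of members were tested by permuting deviations within groups (100000 two-sided resamples, seeded). The fits were tested on simulated data. Members, lists and tests were chosen with earlier results of these data known. Named pathway genes are those past the threshold, up to 6 a list, and the 2 brightest of each list, and other named genes were chosen after their values were seen. Some listed genes enter the counts and are not reported here by name or drawn. The number of arrays and the signal over background limit the precision. Alternatives were other scalings (75th percentile, median, spike-in), normexp with offset 50, the authors' table, other filters, slide, array weights, brightness and leukocyte covariates, no breed term, other probe choices, TN arrays alone and each array left out. A macrophage covariate and leaving out 3 arrays high in plasma protein markers were added after seeing the data.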

Additional observations from a re-analysis of the deposited data

Results flagged for a closer look

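TF in F1 HS replicate 4 read 6.52 log2, below the other 4 arrays of its group, the nearest at 6.67. Its gap took 0.724 of the range of the group, above the limit of 0.71 for 5 arrays. It was the only such array among 54 sets of values checked, 9 probes in 6 groups, and chance alone gives about 1 in 20.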

How the results depend on the processing

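The members were chosen on the temperature contrast, so their stability in it supports nothing. HBB ranged from -1.37 to -0.96 over 16 alternative settings and from -1.33 to -1.1 over the arrays left out, and TFRC from -1.11 to -0.69 and from -1.07 to -0.88. FTL was 0.39 with the array brightness covariate and 0.08 with the macrophage covariate. FTH1 turned to -0.0418 with the 75th percentile scaling, and the member pairs FTH1 with FTL, HMOX1 with FTH1 and MB with FTH1 turned to -0.156, -0.26 and 0.484, leaving 2 of the 6 pairs past the adjustment.

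Of the 26 member probes, 12 were called between temperatures. That count was 7 with the 75th percentile scaling, 6 with median scaling, 6 with spike-in scaling, 4 with the brightness covariate and 7 with the macrophage covariate, 15 with slide as a block and 17 with array weights, and of the 8 genes 4 by the mean of their probes and 5 by 1 probe per gene name. Leaving out 1 array gave 10 to 17. Within breeds, 2 calls became 1 with the 75th percentile scaling, median scaling, no filter, slide as a block, the mean of probes or 1 probe per gene name, and 0 with spike-in scaling, the brightness, leukocyte or macrophage covariate, or without the 3 arrays high in plasma protein markers. Leaving out 1 array gave 0 to 11, with 0 without Creole TN replicate 1, Creole HS replicate 1 or Creole HS replicate 5, 1 without Creole TN replicate 4, 5 or 6 or Creole HS replicate 3, 4 or 6, 4 without Large White HS replicate 5 and 11 without Large White TN replicate 6. Of the 62 pathway genes, 12 were called, and 5 with spike-in scaling, 3 with the brightness covariate, 6 with the leukocyte covariate and 2 with the macrophage covariate. Leaving out 1 array gave 7, without Creole HS replicate 1, to 15. Breed and interaction counts of members were 0 throughout.

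Over all probes, 6654 calls became 2092 with the brightness covariate, 1040 with the macrophage covariate, 4416 with the leukocyte covariate and 4393 with 1 probe per gene name, and rose to 7286 with the 75th percentile scaling, 8348 with slide as a block and 9158 with array weights. Of the calls, 48.2% were higher in HS, against 37.5% with the 75th percentile scaling, 86.6% with spike-in scaling, 63.6% with the brightness covariate and 63.1% with the macrophage covariate. The causes of these changes were not tested. No paired analysis was possible because the labels give no replicate numbers, which here only name arrays. Dim signal limits ALAS2, the TF probes other than the brightest and 2 of the 3 TFRC probes, which were not well above background on every array.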
